A study of Homo sapiens with 6 samples.

Results

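The 56 genes described here encode the machinery of mitosis and of the spindle, from the cyclin-CDK engine that starts M phase to the proteins that separate the chromosomes and the daughter cells. They were taken by symbol from a table of 25545 genes measured in BT-549 cells, and all 56 had a row. The BT-549 line, long kept in culture, derives from a breast tumor of triple-negative type (TNBC) and has mesenchymal character. Libraries were made from 3 cultures transfected with a control siRNA (CsiRNA, titled BT-549/tet-NEAT1CsiRNA) and from 3 cultures transfected with an siRNA against the long noncoding RNA NEAT1 (NEAT1siRNA, titled BT-549/tet-NEAT1siRNA), each harvested 48 h after transfection. All 6 libraries come from 1 cell line grown in RPMI1640 medium with serum and insulin, and each group received 1 siRNA, so that an effect of losing NEAT1 and any other effect of that siRNA cannot be told apart. The labels say only that cells were cultured in triplicate, so the p-values measure the spread between these cultures, which may be technical. The question addressed is whether silencing NEAT1, the RNA scaffold of nuclear paraspeckles, moved the mitotic program of these cells.

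Mitotic genes are transcribed late in the cell cycle. In many of them the DREAM complex represses the promoter in resting and G1 cells, and the MYBL2-MuvB complex with FOXM1 activates it in G2, through a short promoter element called the cell cycle genes homology region (CHR). Entry into mitosis is driven by CDK1 bound to cyclin B, and the anaphase-promoting complex (APC/C) with its activator CDC20 ends mitosis by destroying cyclin B and securin. Since these transcripts are made by dividing cells, their level in a culture depends on the share of cells in G2 and M phase, and in bulk RNA that share cannot be told apart from the amount of RNA per cell.

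The silenced RNA itself, NEAT1, stood at 13.4, 7.68 and 10.8 TPM across CsiRNA cultures 1 to 3 and at 4.36, 2.96 and 2.73 TPM across NEAT1siRNA cultures 1 to 3, without overlap and with a log2 fold change of -1.41 (adjusted p = 1.21e-07, limma). The authors deposited TPM, which scale the reads of a gene by its length and to a fixed total per library, so that levels can be compared between genes. Libraries held between 15787416 and 20342517 recovered reads. A group of 4 short noncoding RNAs took between 64.4% and 68.1% of the TPM of each library, so that the scale of all other genes moves with them. All 5 mesenchymal markers were expressed, with CsiRNA means from 15.1 TPM for ZEB1 to 1046 TPM for VIM. Of the 5, 2 were called lower after silencing, against 8.98% lower among all genes tested. These were FN1 (log2 fold change -0.47, adjusted p = 0.00116, limma) and CDH2 (-0.34, adjusted p = 0.0186, limma). VIM (-0.15), ZEB1 (-0.02) and SPARC (0.08) were not called. SPARC was higher after silencing without overlap between groups, against 11% of all genes tested. Of the receptors that define triple-negative tumors by their absence, ESR1 was listed at 0 in all 6 libraries and PGR reached at most 0.00676 TPM, whereas ERBB2 lay between 5.76 and 6.36 TPM. Among luminal markers KRT18 lay between 1.04 and 2.07 TPM, and EPCAM, CDH1, KRT19 and GATA3 reached at most 0.168 TPM. The blood markers CD3E and HBB and the endothelial markers VWF and CDH5 were at 0, PTPRC and PECAM1 reached at most 0.058 TPM, and CD14 reached 0.369 TPM.

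The mitotic genes were highly expressed. Their mean TPM over the 6 libraries ran from 7.10 for CDC25C to 247 for CCNB1, with a median of 42.2, against a median of 9.10 over the 10721 genes tested, those whose mean TPM reached 1. All 56 passed that filter, 55 lay above that median, and 45 were in the highest 25% of those genes. Recovered reads per library averaged from 374 for CDC25C to 14794 for TPX2. CCNB1 and CKS2, the highest in mean TPM, overlapped in their values, as did UBE2C and CDC20 behind TPX2. At the low end NCAPH and CDC25C stood under all others, with ranges that did not meet. The summed TPM of the 56 genes came to 3462, 3323 and 3108 across CsiRNA cultures 1 to 3 and to 3201, 3489 and 3091 across NEAT1siRNA cultures 1 to 3, so that the groups overlapped. Without the 4 short noncoding RNAs, the 56 genes took between 0.962% and 0.972% of the remaining TPM with CsiRNA, and between 0.968% and 0.994% with NEAT1siRNA.

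**Figure D1:**
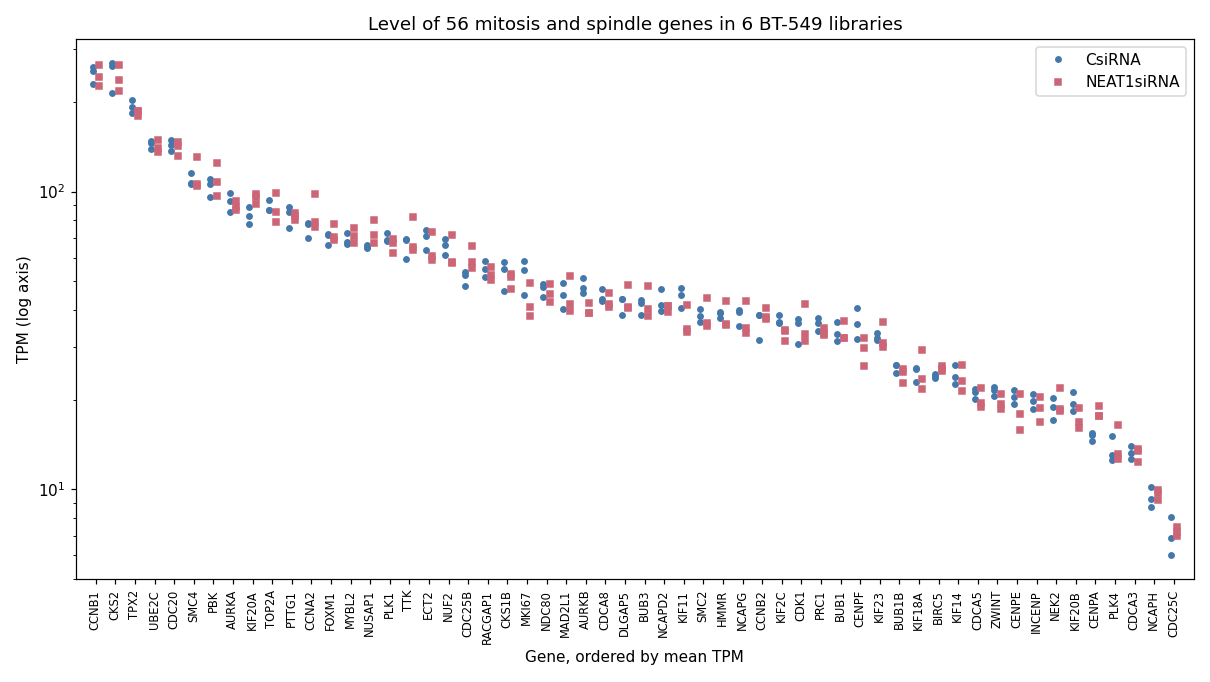
TPM (log axis) of the 56 mitosis and spindle genes, ordered by their mean, with 1 point for each of 3 CsiRNA libraries (circles) and 3 NEAT1siRNA libraries (squares). The groups lie on top of each other for most genes, from CCNB1 at a mean of 247 TPM down to CDC25C at 7.10 TPM.

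Many promoters of these genes hold a short sequence that the choice of genes did not use. RefSeq promoter windows (GRCh38.p14, 250 bases before to 50 after each start) were found for 47 of the 56 genes, in 62 windows. The CHR was searched as TTTGAA or TTCGAA, each on both strands. Other spellings were not searched, so a gene without a match is not shown to lack a CHR. A window with either hexamer was found for 78.7% of these genes, against 15.4% of the genes tested and 19.5% of all genes with a window. CCAAT, the box bound by NF-Y that often stands upstream of a CHR, was in a window of 78.7% of the mitotic genes, also on both strands, against 43.8% of the genes tested. The hexamer and CCAAT shared a window in 61.7% of the mitotic genes and in 6.51% of the genes tested. A match is a run of letters and not a shown binding site, and windows were counted per gene, where a gene with several starts has more chances.

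Shown here are 30 bases around the hexamer (in capitals) nearest to the start, within 100 bases before it, for the genes described in detail below. The hexamer is alike in all of them since it was searched for, and they are printed to show its surroundings and its distance from the start. Of the genes described in detail, CCNA2, CCNB1, MYBL2, AURKB, KIF20A and KIF2C had a window without the hexamer, and others had it elsewhere in the window or had no window. Each reads 5′ to 3′ along the strand of its gene.
CDK1 (chr10:60778453-60778482, plus strand): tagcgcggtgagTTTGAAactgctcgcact
CDC25B (chr20:3796260-3796289, plus strand): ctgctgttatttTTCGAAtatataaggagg
PLK1 (chr16:23678848-23678877, plus strand): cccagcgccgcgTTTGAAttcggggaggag
CENPA (chr2:26786026-26786055, plus strand): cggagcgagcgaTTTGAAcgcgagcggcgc
KIF11 (chr10:92593090-92593119, plus strand): ctctgtctctttTTCAAAttgaggcgccga
SMC4 (chr3:160399563-160399592, plus strand): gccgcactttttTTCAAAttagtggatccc
MKI67 (chr10:128126435-128126464, minus strand): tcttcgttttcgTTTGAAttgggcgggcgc
CDC20 (chr1:43358904-43358933, plus strand): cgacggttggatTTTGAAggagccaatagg
In PLK1 and MKI67 the hexamer began 29 bases before the start, in KIF11 28 and in CENPA 18. KIF11 and SMC4 carry it on the opposite strand, and TTCGAA of CDC25B reads the same on both strands. The 37 genes with a hexamer had a median log2 fold change of -0.041 on NEAT1 silencing and the 10 genes with a window but no hexamer one of 0.014, and their ranges overlapped widely.

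None of the 56 mitotic genes passed the threshold after NEAT1 was silenced. Levels were compared as log2(TPM + 1) with limma's moderated test (two-sided), fitted over all 10721 genes, with a gene called at a Benjamini-Hochberg adjusted p under 0.05. At this threshold 0 of 56 were called with limma, against 14.0% of all genes tested (4.99% higher, 8.98% lower). Among the 5994 genes with a mean TPM in the range of the mitotic genes, 13.1% were called (4.14% higher, 8.93% lower). The lowest adjusted p of a mitotic gene was 0.0578 (CENPF, limma). At an unadjusted p under 0.05, 3 were higher and 4 lower, or 7 of 56, against 27.4% of all genes tested (9.22% higher, 18.2% lower).

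The differences were small as well as uncalled. The median log2 fold change of the 56 genes was -0.025, against -0.044 over all genes tested, with 20 positive and 36 negative. Individual values ran from -0.29 (CENPF) to 0.25 (CENPA), so that 0 of 56 reached 0.3 in size, against 13.1% of all genes tested and 11.4% of genes in the same range of TPM. The SD of the log2 fold changes was 0.11 among the mitotic genes and 0.20 among the 5994 genes in that range. The median standard error was 0.094 and 0.095. Those 5994 genes share the range of the mitotic genes but were not matched to them in level. For 55 of 56 genes the 95% interval lay within 0.5 of 0 on the log2 scale (86.2% of all genes tested), the exception being MKI67 with a lower bound of -0.51. The median half-width of these intervals, which are not adjusted for the number of genes, was 0.19 on the log2 scale. The groups did not overlap for 7 genes, CDC25B, CENPA, KIF20A, NUSAP1 and BIRC5 with higher and AURKB and KIF2C with lower values after silencing, against 30.3% of all genes tested (11% higher, 19.3% lower) and 29.1% of those in the same range of TPM.

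**Figure D2:**
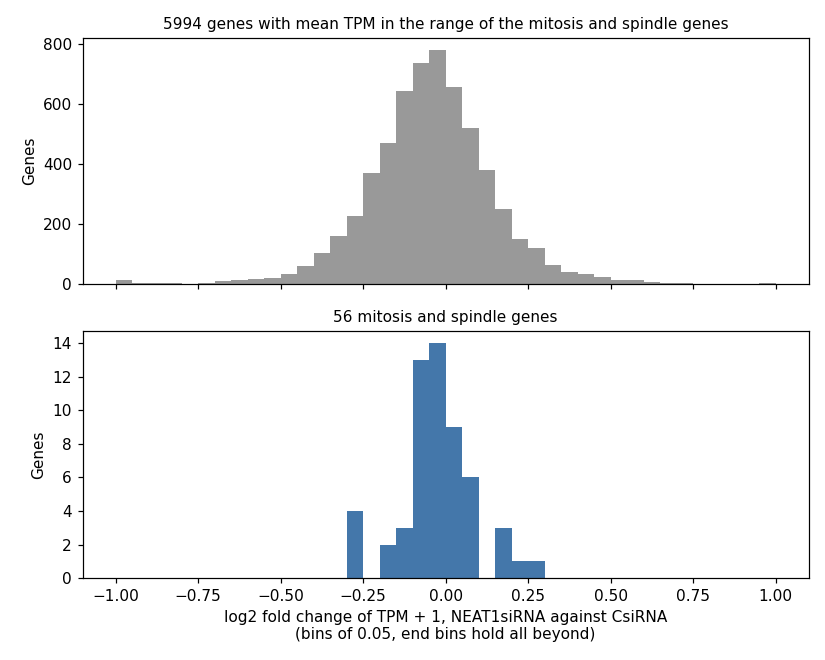
Number of genes (vertical axes) by log2 fold change of TPM + 1 between NEAT1siRNA and CsiRNA (horizontal axis, bins of 0.05) for 5994 genes with a mean TPM in the range of the mitotic genes (top) and for the 56 mitotic genes (bottom). The mitotic genes lie between -0.29 and 0.25, and the comparison genes reach beyond both ends.

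**Figure D3:**
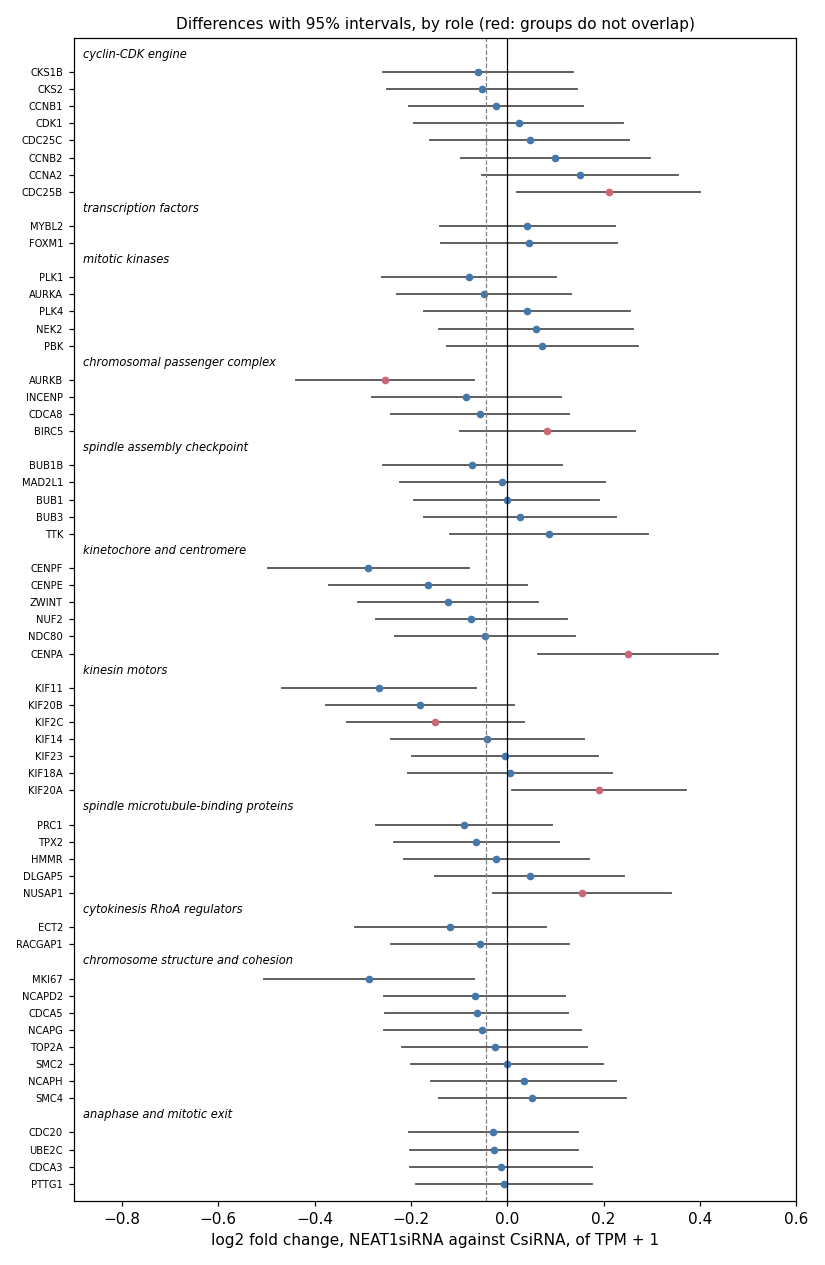
Log2 fold change of each of the 56 genes (point) with its 95% interval from limma (line), grouped by role. Red points are the 7 genes whose groups do not overlap, the solid line is 0, and the dashed line is the median of all genes tested, -0.044.

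Which of the 56 genes passed depended on how the libraries were scaled, while their share stayed under that of all genes tested wherever any passed. Voom on recovered reads called 4 of them higher (CDC25B, CENPA, KIF20A and NUSAP1) and 3 lower (AURKB, CENPF and KIF11), against 23.3% of all genes tested (11.1% higher, 12.2% lower). Taking the 4 short noncoding RNAs out of the TPM gave 3 higher (CDC25B, CENPA and KIF20A) and 2 lower (AURKB and KIF11), against 19.6% (8.56% higher, 11% lower). After median centring of the libraries 4 passed as higher and 0 as lower, against 19.7% (10.8% higher, 8.9% lower), so that the split of all calls by direction moved as well. Quantile normalization called 3 of 56, against 20.4%, and a filter at a mean TPM of 5 called 2, against 14.3%. A fit with the replicate number as a block called 3, against 15.3%.
Leaving out single cultures gave lower calls only. Without NEAT1siRNA replicate 2 these were CENPE, CENPF, KIF11 and MKI67, against 19.4% of all genes tested. Without CsiRNA replicate 2 (12%) or NEAT1siRNA replicate 1 (13.7%) they were CENPF and MKI67, and without CsiRNA replicate 3 (13.2%) KIF11. Without CsiRNA replicate 1 (7.08%) or NEAT1siRNA replicate 3 (7.82%) no mitotic gene was called, nor was one with no filter on TPM (2.73%), with a pseudocount of 0.1 (13.8%) or with no trend in the variance (13.9%).

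In the cyclin-CDK engine the groups overlapped for 7 of 8 genes. CCNB1, which encodes cyclin B1, was 262, 255 and 230 TPM with CsiRNA and 242, 266 and 227 TPM with NEAT1siRNA. Both groups spanned the same range, and the log2 fold change was -0.02 (95% interval -0.20 to 0.16). CDK1, the kinase that cyclin B activates, was 37.3, 36.3 and 30.8 TPM with CsiRNA and 31.5, 41.9 and 33.2 TPM with NEAT1siRNA. The highest CDK1 value was in NEAT1siRNA replicate 2 and the other values of that group lay inside the CsiRNA range. CCNA2, which encodes cyclin A2, was 78.0, 78.6 and 69.8 TPM with CsiRNA and 75.8, 98.3 and 78.9 TPM with NEAT1siRNA. Its groups overlapped and NEAT1siRNA replicate 2 again stood highest. The cyclin B2 gene CCNB2 and the CDK-binding subunits CKS1B and CKS2 had log2 fold changes between -0.06 and 0.10.

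CDC25 phosphatases remove the inhibitory phosphates from CDK1. CDC25B was 53.5, 48.3 and 52.4 TPM with CsiRNA and 65.7, 58.0 and 55.4 TPM with NEAT1siRNA. All 3 NEAT1siRNA values lay above the CsiRNA range, with a log2 fold change of 0.21 (95% interval 0.02 to 0.40, adjusted p = 0.133, limma). Its paralog CDC25C was 8.06, 6.86 and 6.04 TPM with CsiRNA and 7.17, 6.97 and 7.48 TPM with NEAT1siRNA, with full overlap. The 8 genes of the engine had a median log2 fold change of 0.035, with 0 called.

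FOXM1, the forkhead factor that activates G2 and M phase genes, was 71.9, 66.4 and 71.6 TPM with CsiRNA and 77.6, 70.4 and 68.7 TPM with NEAT1siRNA. MYBL2, which encodes the B-MYB factor that works with it, was 72.4, 68.0 and 66.9 TPM with CsiRNA and 75.5, 71.1 and 67.0 TPM with NEAT1siRNA. Both pairs of groups overlapped, with log2 fold changes of 0.04 in either case, and the upper bounds of the 95% intervals were 0.23 and 0.22.

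For the 5 mitotic kinases outside the passenger complex the groups overlapped. PLK1, which acts at centrosomes, kinetochores and the midbody, was 72.8, 68.5 and 68.6 TPM with CsiRNA and 69.5, 67.0 and 62.2 TPM with NEAT1siRNA, a log2 fold change of -0.08 (95% interval -0.26 to 0.10). PBK, a kinase of dividing cells that CDK1 phosphorylates, was 110, 106 and 96.1 TPM with CsiRNA and 96.8, 125 and 108 TPM with NEAT1siRNA. PLK1 was lowest in NEAT1siRNA replicate 3, and PBK highest in NEAT1siRNA replicate 2. AURKA (centrosome maturation), PLK4 (centriole duplication) and NEK2 (centrosome separation) had log2 fold changes of -0.05, 0.04 and 0.06.

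The chromosomal passenger complex, which corrects faulty attachments of chromosomes to the spindle, consists of the kinase AURKB with INCENP, survivin (BIRC5) and borealin (CDCA8). AURKB was 51.1, 45.5 and 47.6 TPM with CsiRNA and 42.1, 39.1 and 39.1 TPM with NEAT1siRNA. All 3 NEAT1siRNA values lay below the lowest CsiRNA value, at a log2 fold change of -0.25 (SE 0.09, 95% interval -0.44 to -0.07, adjusted p = 0.0584, limma), which misses the threshold. With voom on recovered reads its adjusted p was 0.0410, and without the 4 short noncoding RNAs 0.0406 (limma). Under median centring it was 0.0561 and under quantile normalization 0.0728 (limma). On leaving out each culture in turn it lay between 0.0530 and 0.257 (limma).
BIRC5 was 24.3, 24.0 and 23.6 TPM with CsiRNA and 25.3, 25.1 and 26.0 TPM with NEAT1siRNA. Its groups did not overlap in the other direction, by a small margin, with a log2 fold change of 0.08 (adjusted p = 0.594, limma). INCENP and CDCA8 overlapped, with log2 fold changes of -0.08 and -0.06.

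The spindle assembly checkpoint delays anaphase until all kinetochores are attached, and its 5 genes had log2 fold changes between -0.07 and 0.09. TTK, which encodes the kinase MPS1 that starts the checkpoint signal, was 68.6, 69.1 and 59.5 TPM with CsiRNA and 63.7, 81.9 and 65.0 TPM with NEAT1siRNA. NEAT1siRNA replicate 2 was the highest of all 6 and the other 2 lay inside the CsiRNA range. BUB1, BUB1B, BUB3 and MAD2L1 overlapped between groups too, and BUB1 had a mean of 33.7 TPM in each.

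Among kinetochore and centromere genes the values spread to both sides. CENPA, which encodes the histone H3 variant that marks the centromere, was 15.5, 15.2 and 14.5 TPM with CsiRNA and 17.7, 19.1 and 17.6 TPM with NEAT1siRNA. The groups did not overlap, at a log2 fold change of 0.25 (SE 0.09, 95% interval 0.06 to 0.44, adjusted p = 0.0658, limma). CENPA passed the threshold under each of the 3 changes of scale tried on the TPM, with an adjusted p of 0.00414 under median centring, 0.00523 under quantile normalization and 0.00612 without the 4 short noncoding RNAs (limma). With the replicate block its adjusted p was 0.0528 (limma), and CENPA was not called on leaving out any single culture.
CENPF, a large coiled-coil protein of the outer kinetochore, was 40.5, 32.0 and 36.0 TPM with CsiRNA and 32.4, 29.8 and 26.0 TPM with NEAT1siRNA. CsiRNA replicate 2 and NEAT1siRNA replicate 1 were nearly equal, and the log2 fold change was -0.29 (95% interval -0.50 to -0.08, adjusted p = 0.0578, limma). On leaving out CsiRNA replicate 2, NEAT1siRNA replicate 1 or NEAT1siRNA replicate 2, its adjusted p was 0.0267, 0.0196 or 0.0111 (limma). On leaving out CsiRNA replicate 1, CsiRNA replicate 3 or NEAT1siRNA replicate 3, it was 0.318, 0.0669 or 0.305 (limma). The kinetochore motor CENPE had a log2 fold change of -0.17, and its adjusted p was 0.0380 without NEAT1siRNA replicate 2 (limma). CENPE was called under no other alternative. NUF2, a subunit of the microtubule-binding NDC80 complex, was 66.2, 69.3 and 61.2 TPM with CsiRNA and 57.7, 71.6 and 57.9 TPM with NEAT1siRNA, and its partner NDC80 and the adaptor ZWINT overlapped as well.

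Kinesin motors also went both ways. KIF11 (Eg5), which pushes the spindle poles apart, was 47.3, 44.8 and 40.6 TPM with CsiRNA and 33.7, 41.7 and 34.6 TPM with NEAT1siRNA. NEAT1siRNA replicate 2 reached into the CsiRNA range and the other 2 lay below it, with a log2 fold change of -0.27 (95% interval -0.47 to -0.07, adjusted p = 0.0698, limma). Without NEAT1siRNA replicate 2 its log2 fold change was -0.36 with an adjusted p of 0.00150 (limma). Without CsiRNA replicate 3 its adjusted p was 0.0280 (limma). On leaving out each of the other cultures it lay between 0.173 and 0.288 (limma).
KIF20A, which carries the passenger complex to the central spindle, was 88.4, 82.7 and 77.8 TPM with CsiRNA and 95.8, 97.8 and 90.7 TPM with NEAT1siRNA. Each NEAT1siRNA value lay above each CsiRNA value, with a log2 fold change of 0.19 (95% interval 0.01 to 0.37, adjusted p = 0.154, limma). Its adjusted p was 0.00721 with voom on recovered reads and 0.0103 under median centring (limma). On leaving out each culture in turn it lay between 0.179 and 0.348 (limma). KIF2C, a microtubule depolymerase at centromeres, was 38.4, 36.3 and 36.4 TPM with CsiRNA and 34.4, 34.0 and 31.5 TPM with NEAT1siRNA, lower without overlap but with an adjusted p of 0.293 (limma). KIF14, KIF18A, KIF20B and KIF23 overlapped between groups, with log2 fold changes between -0.18 and 0.01.

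Of the spindle proteins that bind microtubules, TPX2, the activator of AURKA, was 203, 192 and 184 TPM with CsiRNA and 187, 187 and 180 TPM with NEAT1siRNA. With the most reads of the 56 genes, it had a log2 fold change of -0.06 (95% interval -0.24 to 0.11). NUSAP1, which bundles microtubules near chromosomes, was 65.9, 65.0 and 64.6 TPM with CsiRNA and 67.1, 80.1 and 71.5 TPM with NEAT1siRNA. Its groups did not overlap, with a log2 fold change of 0.16 (adjusted p = 0.277, limma). DLGAP5, HMMR and PRC1 had log2 fold changes of 0.05, -0.02 and -0.09. For cytokinesis, ECT2, the exchange factor that activates RhoA at the cell equator, was 74.4, 71.1 and 63.5 TPM with CsiRNA and 58.9, 72.9 and 60.9 TPM with NEAT1siRNA, and its partner RACGAP1 had a log2 fold change of -0.06. Both overlapped between groups.

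Of the 8 genes of chromosome structure MKI67 had the largest difference. MKI67, which encodes the proliferation marker Ki-67 on the surface of mitotic chromosomes, was 58.4, 44.8 and 54.6 TPM with CsiRNA and 49.5, 41.0 and 38.3 TPM with NEAT1siRNA. NEAT1siRNA replicate 1 lay inside the CsiRNA range and the other 2 below it, at a log2 fold change of -0.29 (SE 0.11, 95% interval -0.51 to -0.07, adjusted p = 0.0725, limma). On leaving out CsiRNA replicate 2, NEAT1siRNA replicate 1 or NEAT1siRNA replicate 2, its adjusted p was 0.0154, 0.00891 or 0.0298 (limma). On leaving out CsiRNA replicate 1, CsiRNA replicate 3 or NEAT1siRNA replicate 3, it was 0.351, 0.108 or 0.333 (limma). After a trend on GC content and length was removed, its log2 fold change was -0.12 (adjusted p = 0.215, limma).
TOP2A, the topoisomerase that untangles sister chromatids, was 93.8, 86.8 and 86.8 TPM with CsiRNA and 85.4, 99.0 and 79.2 TPM with NEAT1siRNA. Both the highest and the lowest value were in the NEAT1siRNA group. SMC4, the condensin subunit with the highest TPM, was 115, 106 and 107 TPM with CsiRNA and 106, 131 and 104 TPM with NEAT1siRNA, and the groups overlapped. The condensin genes SMC2, NCAPD2, NCAPG and NCAPH and the cohesion gene CDCA5 (sororin) had log2 fold changes between -0.07 and 0.03.

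Anaphase and mitotic exit showed the narrowest range of all roles with more than 2 genes, from -0.03 to -0.01. CDC20, the APC/C activator, was 149, 143 and 137 TPM with CsiRNA and 147, 142 and 132 TPM with NEAT1siRNA. UBE2C, the ubiquitin-conjugating enzyme of the APC/C, was 145, 148 and 139 TPM with CsiRNA and 149, 140 and 135 TPM with NEAT1siRNA. Groups overlapped for both, and the 95% intervals of both ran from -0.20 to 0.15. Securin (PTTG1), which shares sequence with the copies PTTG2 and PTTG3P so that its level is uncertain, and CDCA3 each had a log2 fold change of -0.01. The sign of these differences is not fixed, since those of CDC20 and UBE2C were positive under median centring, at 0.028 and 0.029.

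Between cultures of the same group, many of the 56 genes varied together, and in some libraries the variation went with the GC content of their transcripts. CsiRNA replicate 1 was the highest of its group in 46 genes and NEAT1siRNA replicate 2 in 39. In NEAT1siRNA replicate 3, 3 of 56 genes lay above the mean of the group. Such shifts were not particular to the 56 genes. The median deviation from the CsiRNA mean in CsiRNA replicate 1 was 0.074 for them and 0.075 for all genes tested. In NEAT1siRNA replicate 3 it was -0.10 and -0.11, and in NEAT1siRNA replicate 2 0.065 and 0.020. The matching counts over all genes were not computed. Across the 56 genes, the deviation from the mean of the own group had a Spearman rho with GC content of -0.87 for NEAT1siRNA replicate 2 and 0.78 for NEAT1siRNA replicate 1. For CsiRNA replicates 1 to 3 it was -0.14, -0.37 and 0.41. Over the 10423 genes tested with a GC value, these NEAT1siRNA replicates had a rho of -0.73 and 0.68. Genes share their libraries and are not independent replicates, so these values are descriptions. Transcripts of the mitotic genes had a median GC content of 42.6%, against 47.3% over the genes tested, and KIF20B had the lowest at 34.3%. The fold changes themselves had a Spearman rho with GC content of -0.040 among the 56 genes, and of 0.33 once a trend on GC content and length, fitted over all genes, was removed.
That latter fit called 7 of the 56 higher and 5 lower, against 33.2% of all genes with a GC value (16.3% higher, 16.9% lower). The 7 were CCNA2, CDC25B, FOXM1, BIRC5, CENPA, KIF20A and NUSAP1, and the 5 were AURKB, CENPF, KIF11, KIF20B and ECT2. Their log2 fold changes ranged from -0.26 to 0.30 in that fit. What part GC content had in these differences was not tested further.

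**Figure D4:**
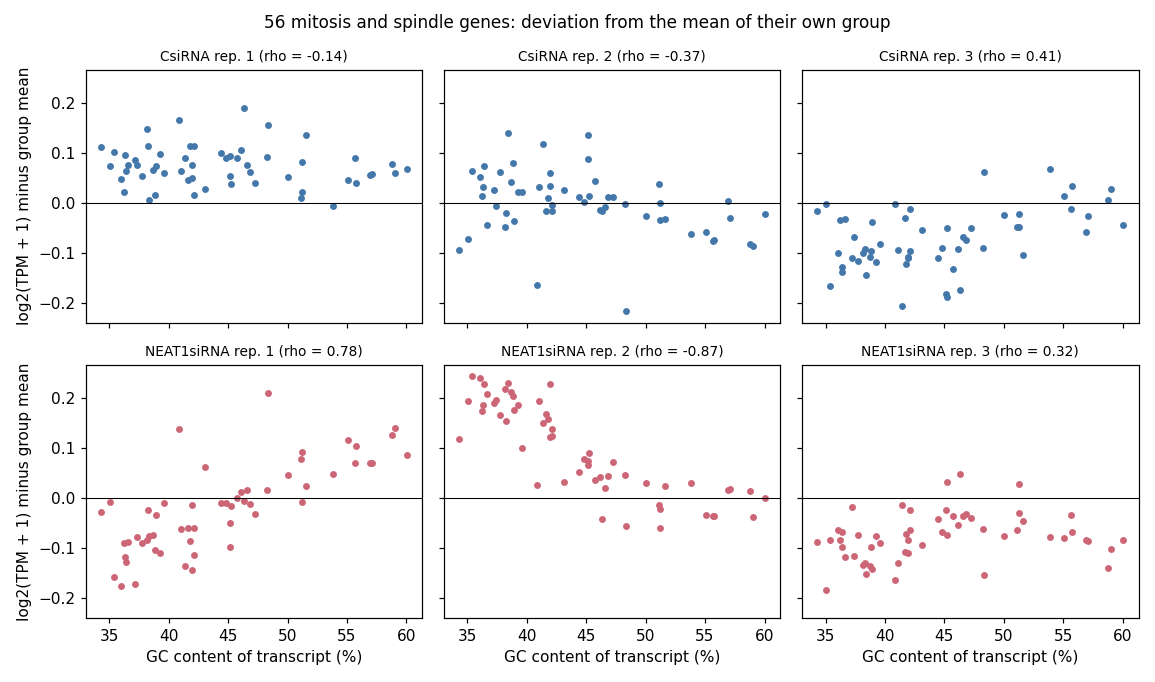
Deviation of each of the 56 genes from the mean of its own group, in log2(TPM + 1), against the GC content of its transcript, with 1 panel for each library and the Spearman rho in each title. In NEAT1siRNA replicate 2 the genes of low GC content lie above the mean (rho -0.87) and in NEAT1siRNA replicate 1 below it (rho 0.78).

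Ratios between partners within a library do not depend on how the library was scaled. They can still carry a trend with GC content where the partners differ in it, and none was removed here. Transcripts of CDK1 had a GC content of 35.4%, those of CCNA2 41.9% and those of CCNB2 45.2%. Followed were 16 pairs of genes whose products work together. These pairs were chosen after the values had been seen and are given as a description. AURKB per CDCA8 was 1.08, 1.05 and 1.11 with CsiRNA and 0.924, 0.954 and 0.935 with NEAT1siRNA, so that the ratio after silencing was 0.869 of the control ratio. AURKB per INCENP and AURKB per BIRC5 were also lower without overlap, at 0.890 and 0.787 of the control ratio. The ratios with AURKB share that gene, which was itself lower without overlap, and so are not separate observations. CCNA2 per CDK1 was 2.09, 2.17 and 2.27 with CsiRNA and 2.41, 2.35 and 2.38 with NEAT1siRNA, higher in each library. CCNB1 per CDK1, CCNB2 per CDK1, NDC80 per NUF2, KIF23 per RACGAP1, TPX2 per AURKA, BUB1 per BUB3, NCAPG per NCAPH, INCENP per CDCA8 and FOXM1 per MYBL2 overlapped between the groups. SMC2 per SMC4, CDC20 per BUB1B and BIRC5 per CDCA8 did not overlap, at 0.964, 1.03 and 1.11 of the control ratio. How often pairs of genes in general fail to overlap was not computed.

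**Figure D5:**
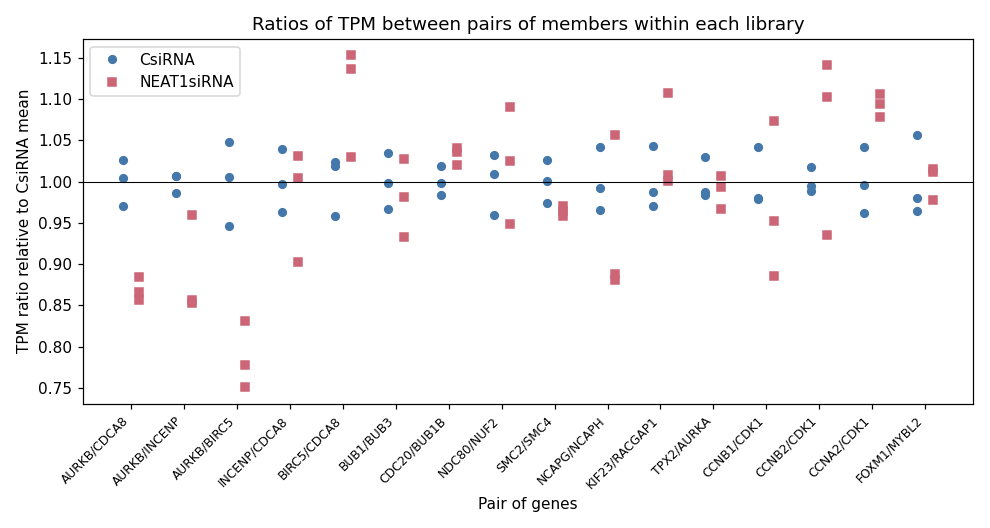
Ratio of TPM between the 2 genes of each of 16 pairs, relative to the mean of the CsiRNA libraries, with 1 point for each CsiRNA (circles) and NEAT1siRNA (squares) library. The 3 ratios with AURKB lie below 1 after silencing, and the ratio of FOXM1 to MYBL2 lies around 1 in both groups.

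Further genes of mitosis and of DNA replication were read from 6 lists with 167 genes, all of which were tested. Of these, 4 were higher and 10 lower past the threshold, or 14 of 167, against 14.0% of all genes tested (4.99% higher, 8.98% lower). This share lies below that of all genes, and the median log2 fold change of the 167 was -0.050, against -0.044 over all genes tested. Against the same shares, the counts in each list below are few and are given as a description. Among 36 other kinetochore genes 2 rose and 2 fell. CENPH, of the inner kinetochore, rose from 27.0 ± 1.96 TPM to 35.3 ± 4.43 TPM (SD, n = 3 each), a log2 fold change of 0.37 (adjusted p = 0.0122, limma). SPC24, a subunit of the NDC80 complex beside NDC80 and NUF2, rose from 13.7 ± 0.403 TPM to 17.1 ± 0.964 TPM (SD, n = 3 each), a log2 fold change of 0.30 (adjusted p = 0.0275, limma). KNTC1, which recruits dynein to kinetochores, and CENPT fell by 0.32 and 0.34 on the log2 scale.
Among 18 APC/C genes and partners 1 fell, ESPL1, which encodes separase, the protease that cuts cohesin at anaphase (log2 fold change -0.32, adjusted p = 0.0391, limma). Of 39 further spindle, centrosome and cytokinesis genes 2 fell. ANLN, which encodes the contractile ring scaffold anillin, was 272, 257 and 241 TPM with CsiRNA and 188, 223 and 188 TPM with NEAT1siRNA. It lay lower in all 3 libraries, with a log2 fold change of -0.36 (95% interval -0.54 to -0.18, adjusted p = 0.00738, limma). The other was PCNT (pericentrin), with a log2 fold change of -0.33 and overlapping groups. In the list of spindle, centrosome and cytokinesis genes, 32 of 39 had a negative and 7 a positive fold change, with a median of -0.095. Over all genes tested 6507 of 10721 were negative, with a median of -0.044 that became 0.013 under median centring. Of 14 condensin and cohesin genes the cohesin subunit STAG2 rose, by a log2 fold change of 0.34.

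Of 23 upstream regulators, E2F2, an activating E2F factor, had 2.55 ± 0.392 TPM with CsiRNA and 4.08 ± 0.296 TPM with NEAT1siRNA (SD, n = 3) and rose by a log2 fold change of 0.52 (adjusted p = 0.000905, limma). CDC25A, the phosphatase that acts at the start of S phase as well as at mitosis, had 10.8 ± 0.981 TPM with CsiRNA and 7.94 ± 0.517 TPM with NEAT1siRNA (SD, n = 3) and fell, at a log2 fold change of -0.40 (adjusted p = 0.00532, limma). E2F4, the factor of the DREAM complex, fell by 0.30 on the log2 scale. E2F1 (log2 fold change -0.06), RB1 (0.16) and WEE1, the kinase that opposes CDC25 (0.06), did not pass the threshold. Of 37 DNA replication genes 3 fell, MCM10 and the clamp loader subunits RFC3 and RFC5, by 0.33, 0.35 and 0.32 on the log2 scale, against 8.98% lower among all genes tested, and the median of the list was -0.060.
The calls of CENPT, E2F4, ESPL1 and PCNT were lost under median centring. Without CsiRNA replicate 1 or without NEAT1siRNA replicate 3, 4 of the 167 genes were called.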

How the data were processed

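RNA from BT-549 cells was sequenced by the authors from stranded mRNA libraries, with reads aligned to GRCh38 by STAR (per the labels and the study's methods; versions and counter not given in the sources used here). The authors deposited TPM per gene and library, and a table of their DESeq2 comparison, whose fold changes and p-values were not used. From the latter only the authors' mean normalized count (a signal averaged over all libraries) was taken, to recover reads per gene from the TPM. Below a mean of 5 the recovered values were whole to within 0.05 of a read in 99.8% of cases, and above 500 in 12.6%, where they are approximate. Library totals of recovered reads limit precision for counting error only.

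Genes whose mean TPM reached 1 were compared as log2(TPM + 1) by lmFit and eBayes (with trend) in limma 3.58.1 under R 4.3.3, all 6 libraries in 1 fit, and p-values were adjusted by Benjamini-Hochberg over all genes tested. Fold changes on this scale understate those of low genes. With 3 against 3, an exact permutation test cannot go below p = 0.1 and was not used. A chi-square of recovered reads, divided by its degrees of freedom, lay between 5.40 and 17.9 for pairs within a group. No pair thus agreed within counting error, and each library was counted once, as labelled. For pairs between groups it lay between 16.3 and 37.4. These ranges overlapped, since NEAT1siRNA replicates 1 and 2 gave the 17.9. GC content came from GENCODE transcripts by symbol (97.2% of genes tested). Alternatives were other scalings, filters and pseudocounts, voom, removal of a GC and length trend, a replicate block and leaving out each library. Python 3.11.15 was used for the rest. The mitotic genes, the gene lists and the alternatives were chosen with earlier results of these data known. Described in full were, by rule, the gene with the highest TPM and the one with the largest difference in each of 11 roles, FOXM1, MYBL2, CCNB1, CDK1, MKI67 and TOP2A, and from other lists up to 4 called genes plus RB1, E2F1 and WEE1. CENPA, KIF2C, BIRC5, CCNA2 and others were added after their values were seen.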

Additional observations from a re-analysis of the deposited data

How the results depend on the processing

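With 3 cultures a group, the 95% intervals of the 56 genes had a median half-width of 0.19 on the log2 scale, and the TPM carry no depth of their own. The fold change of NEAT1 kept its direction in all settings. The median of the 56 genes, -0.025 in the main fit, changed sign between settings and lay between -0.082 and 0.032. Against 1498 calls among all genes, 0 among the 56 and 14 among the 167 others, removing the GC and length trend gave 3464, 7 higher with 5 lower, and 37, and doing so with a replicate block gave 3391, 6 higher with 5 lower (32.5% of all genes tested), and 36. Voom gave 2496, 4 with 3, and 23. With no TPM filter 505 genes and 0 of the 167 were called, and at an adjusted p under 0.01 the counts were 719 and 3. Of the 56, 3 higher and 2 lower passed without the 4 short noncoding RNAs, 4 higher under median centring, 2 higher and 1 lower under quantile normalization, and 2 lower with a mean TPM of at least 5. Leaving out 1 culture gave 759 to 2083 calls among all genes, 0 to 4 lower among the 56 and 4 to 17 among the 167, the fewest without CsiRNA replicate 1 (for the 56 and the 167 also without NEAT1siRNA replicate 3) and the most without NEAT1siRNA replicate 2. The cause of these shifts was not tested. The labels do not say whether same-numbered cultures were handled together. Their deviations from the group means had correlations of -0.030, 0.25 and -0.11, too few values to decide it. A replicate block gave 3 lower calls among the 56 (AURKB, CENPF and MKI67), against 15.3% of all genes tested.

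Small differences changed sign. The log2 fold change of CCNB1 was 0.0091 without the short noncoding RNAs, 0.034 under median centring, 0.032 under quantile normalization and 0.026 with voom. In the same order that of TOP2A was 0.0060, 0.031, 0.00049 and 0.022. UBE2C had 0.0037, 0.029 and 0.019 without the short noncoding RNAs, under median centring and with voom, and CDC20 had 0.0030, 0.028 and 0.019. With the GC and length trend removed, with or without the replicate block, UBE2C had 0.036, CDC20 0.0069, TPX2 0.015 and CDK1 -0.033. On leaving out 1 culture, values ran from -0.085 to 0.032 for CCNB1, -0.064 to 0.013 for CDC20, -0.098 to 0.10 for CDK1, -0.0079 to 0.079 for FOXM1, -0.0011 to 0.084 for MYBL2, -0.023 to 0.16 for PBK, -0.052 to 0.11 for SMC4, -0.11 to 0.045 for TOP2A, -0.028 to 0.15 for TTK, -0.067 to 0.0033 for UBE2C and -0.012 to 0.11 for WEE1.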
